A study of Mus musculus with 6 samples.

Results

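Mitotic kinesin motors are the subject of this description, and their mRNA was compared between parental CT26.mMR1 cells and M8 cells. The 10 genes Kif11, Kif14, Kif15, Kif18a, Kif20a, Kif20b, Kif22, Kif23, Kif2c and Kif4 were taken by symbol from the 24346 genes in the deposited tables, as a list that was drawn up with earlier results of these data known. CT26 is a mouse colorectal tumor line, and both groups carry a retroviral mouse MR1, the molecule that presents small metabolites to MR1-restricted T cells. The parental group was this MR1-overexpressing line, and the M8 group was an MR1-overexpressing mutant of it, obtained with the mutagen ENU and cloned by limiting dilution, so that M8 stands for 1 clone. The sample titles of both groups also carry the designation cl9. Each line was sequenced in 3 biological replicates, and no treatment or time course was applied to these 6 samples.

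Kinesins are motor proteins that use ATP to walk along microtubules or to take microtubule ends apart. During mitosis some of them push the spindle poles apart, others move chromosomes along the spindle or shorten its fibers at the kinetochores, and a further group gathers at the spindle midzone and drives cytokinesis. The mRNA of most mitotic kinesins accumulates in G2 and M phase and is low in resting cells. Their promoters often hold a CCAAT box, bound by the factor NF-Y, and a cell cycle genes homology region, where the DREAM complex represses in resting cells and the B-MYB and FOXM1 complexes act later in the cycle.

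Of the 10 genes, 9 had a RefSeq promoter window of 300 bases (GRCm38.p6, the assembly of mm10), with 250 bases before and 50 after the annotated start site, and these windows were searched on both strands for the CCAAT box by its letters CCAAT, for the usual core of the homology region, TTTGAA, and for its rarer form, TTCGAA. The usual core TTTGAA was found in 8 of the 9 windows, against 17.9% of all 32851 windows and 11.8% of the 10401 windows of genes tested for expression. Within 30 bases of the start site it was found in 6 of 9 windows (Kif11, Kif15, Kif20b, Kif22, Kif23 and Kif4), against 2.95% of all windows. CCAAT was found in 5 of 9 windows, against 37.4% of all windows, and the rarer form TTCGAA in 0 of 9 against 1.56%. The windows of Kif11, Kif14, Kif22, Kif23 and Kif4 held CCAAT together with TTTGAA, and CCAAT with either form of the homology region was found in 7.52% of all windows. The windows of Kif14 and Kif2c begin at a start site inside the gene, where their matches lie 88 bases or more upstream. The Kif18a window held none of the 3 motifs. These matches are descriptions of the letters and not of binding sites, and they were given no test. The 150 bases before the start site are shown for Kif11, Kif22 and Kif15, where the homology region core lies within 20 bases upstream of the start, and for Kif18a, the member without a match. They run 5′ to 3′ on the gene's strand, from chr19:37376232-37376381 (plus), chr7:127042421-127042570 (minus), chr9:122950931-122951080 (plus) and chr2:109280588-109280737 (plus), and capitals mark ATTGG, which is CCAAT on the other strand, and TTCAAA, which is TTTGAA on the other strand.
Kif11: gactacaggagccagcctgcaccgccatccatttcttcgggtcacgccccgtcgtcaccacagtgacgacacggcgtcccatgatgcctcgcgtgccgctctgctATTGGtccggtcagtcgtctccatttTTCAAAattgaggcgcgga
Kif22: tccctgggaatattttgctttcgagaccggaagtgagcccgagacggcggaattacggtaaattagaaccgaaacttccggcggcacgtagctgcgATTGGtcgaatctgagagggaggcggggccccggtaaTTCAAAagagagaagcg
Kif15: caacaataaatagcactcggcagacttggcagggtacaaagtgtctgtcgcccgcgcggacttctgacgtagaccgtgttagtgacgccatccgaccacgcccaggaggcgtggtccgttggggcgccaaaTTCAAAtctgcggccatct
Kif18a: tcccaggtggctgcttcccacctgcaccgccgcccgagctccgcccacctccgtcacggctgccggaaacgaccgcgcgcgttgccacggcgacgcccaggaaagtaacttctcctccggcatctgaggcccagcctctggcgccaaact

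**Figure D1:**
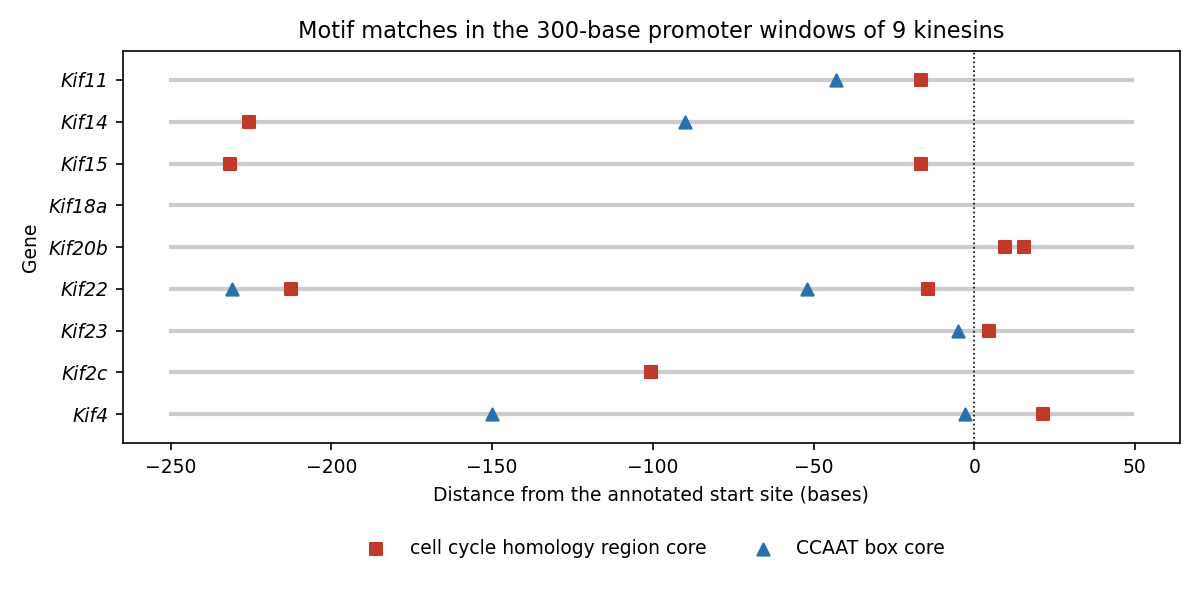
Matches to the homology region core (TTTGAA, squares) and the CCAAT box core (triangles), on either strand, by distance in bases from the annotated start site (dotted line) in the windows of 9 kinesins (grey lines). The squares nearest the start site lie just before it in Kif11, Kif15 and Kif22 and just after it in Kif20b, Kif23 and Kif4, and the Kif18a line is empty.

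In the printed stretches, the homology region core stood at the same place in Kif11 and Kif15, from −19 to −14 with the start site counted as 0, and from −17 to −12 in Kif22. CCAAT stood from −45 to −41 in Kif11 and from −54 to −50 in Kif22. The GC content of the 9 windows ran from 43.7% to 65.0%, against a median of 52.7% over all windows.

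Of the 10 mitotic kinesins, 9 were higher in M8 and 0 were lower at an adjusted p below 0.1 (limma), and in the same 9 genes every M8 value lay above every parental value. Over all 10597 genes tested, 21.2% were called higher and 16.5% lower, and every M8 value lay above every parental value in 24.8% and below in 20.4%. The 10 members had a median log2 fold change of 0.40, where all tested genes had 0.0069. The called members differed by 1.19-fold (Kif20b) to 1.54-fold (Kif20a) in mean FPKM, and all 10 passed the filter on low values. FPKM is a level per transcript length and mapped library, so higher values in bulk RNA can come from more cells in G2 and M or from more mRNA in each such cell, and these cannot be told apart. The split over all genes depended on the scaling: 2250 were higher and 1745 lower with the deposited FPKM, and 1658 and 2209 after rescaling to TPM, whereas 9 members were higher and 0 lower under both.

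**Figure D2:**
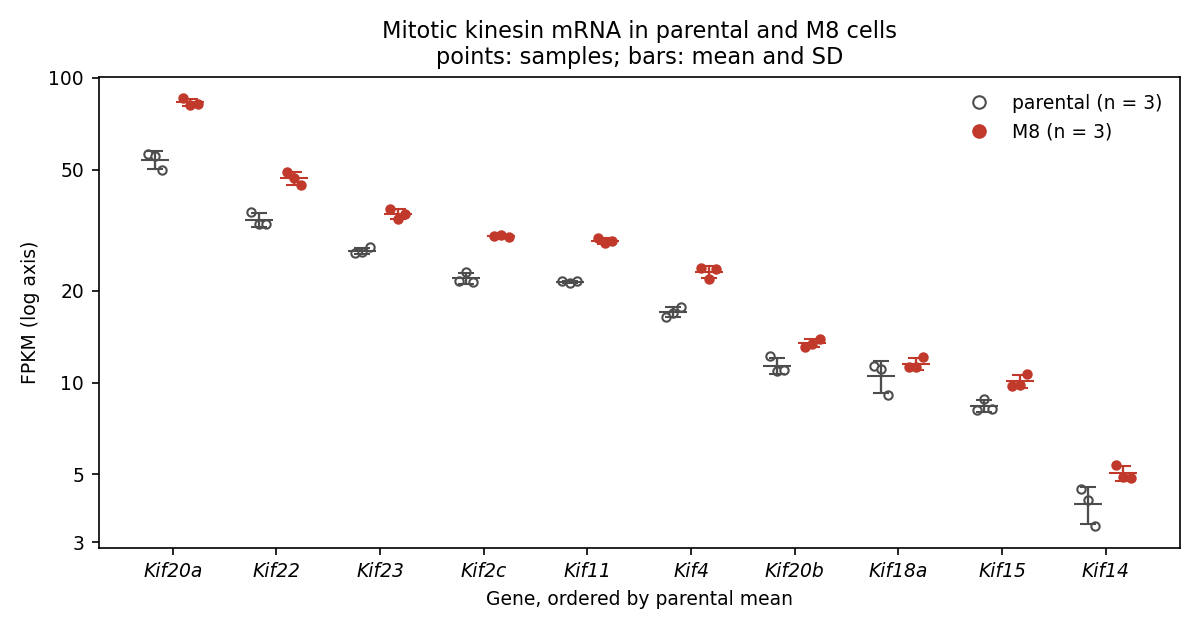
FPKM on a log axis of the 10 kinesins in the 3 parental (open circles) and 3 M8 samples (filled circles), ordered by parental mean, with bars for the mean and SD. Open and filled circles overlap only for Kif18a.

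Samples of a line resembled each other more than samples of different lines. Over all genes tested, Pearson's r was 0.994 to 0.995 within and 0.989 to 0.992 between lines (genes are no independent replicates of each other). The M8 libraries were shallower: relative to parental replicate 1, the depth read from the FPKM steps of low genes was 0.948 to 1.07 in parental samples and 0.772 to 0.875 in M8. The reads per sample behind a member were estimated at 689.9 (the lowest, for Kif18a) to 6538 (the highest, for Kif20a), and their part in the differences between the lines was not tested. The labels name colon as the tissue. Of 13 epithelial markers, 3 had a mean FPKM of at least 1 and 4 (Epcam, Cdh1, Krt19, Cdx2) were listed at 0 in every sample, with sums of 41.9 to 57.7 FPKM in parental and 48.2 to 50.2 in M8. All 8 mesenchymal markers had a mean of at least 1, with sums of 4557 to 5055 and 5249 to 5497 FPKM, and 0 of 7 leukocyte markers in the tables reached it. The mesenchymal sums differed mainly through S100a4, with means of 1434 FPKM in parental cells and 2052 in M8, while Fn1 had 622 and 488. Of 3 epithelial markers tested, 0 were higher and 2 lower in M8 (Krt20 and Lgals4), and of 8 mesenchymal ones 2 were higher and 1 was lower, the latter near the shares of 21.2% higher and 16.5% lower over all genes tested, and their part in the kinesin values was not tested.

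The motors that separate the spindle poles were both higher in M8. Kif11 encodes Eg5, the tetrameric motor that slides antiparallel microtubules and makes the spindle bipolar. It lies on chromosome 19 (37376382 to 37421863, plus strand). Its FPKM was 21.5, 21.3 and 21.6 in the parental samples and 29.9, 28.6 and 29.1 in M8. The parental values had a CV of 0.761%, the tightest of the 10 genes, and the lines were far apart. The mean went from 21.4 ± 0.163 to 29.2 ± 0.624 (SD, n = 3 each), with a log2 fold change of 0.43 (SE 0.042, adjusted p = 0.000289 in limma). Kif15, which backs up Eg5 on parallel spindle bundles, lies on chromosome 9 (122951081 to 123018733, plus strand). Its FPKM was 8.15, 8.82 and 8.20 in parental samples and 9.78, 9.83 and 10.7 in M8. The lines did not overlap, and the gap was narrower than for Kif11: the means were 8.39 ± 0.378 and 10.1 ± 0.490 (SD, n = 3 each), with a log2 fold change of 0.24 (SE 0.059, adjusted p = 0.0161 in limma).

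Of the 4 motors of chromosome arms and kinetochores, 3 were higher. Kif22 encodes Kid, a chromokinesin that binds DNA and pushes chromosome arms toward the equator, and lies on chromosome 7 (127027729 to 127042467, minus strand). Parental values were 36.2, 33.1 and 33.2 FPKM, and M8 values were 49.2, 47.0 and 44.4. Parental replicate 1 and M8 replicate 1 were the highest of their lines, and the lowest M8 value stayed above the highest parental one. Its log2 fold change was 0.45 (SE 0.054, adjusted p = 0.000738 in limma). The other chromokinesin, Kif4, which with Prc1 sets the length of midzone microtubules, lies on chromosome X (100626065 to 100727271, plus strand). It had 16.4, 16.9 and 17.7 FPKM in parental samples and 23.8, 21.8 and 23.6 in M8. M8 replicate 2 was the lowest of its line and still above every parental sample, and the log2 fold change was 0.42 (SE 0.052, adjusted p = 0.000899 in limma).

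Kif2c encodes MCAK, which does not walk but depolymerizes microtubule ends and corrects faulty kinetochore attachments. It lies on chromosome 4 (117159633 to 117182624, minus strand). Its parental values were 21.5, 23.0 and 21.4 FPKM and its M8 values 30.29, 30.51 and 30.01. The M8 samples were nearly equal (CV 0.815%), and all stood well above the parental ones, with a log2 fold change of 0.45 (SE 0.046, adjusted p = 0.000338 in limma). Kif18a, which dampens the oscillation of chromosomes at the metaphase plate, was the member that did not pass. The gene lies on chromosome 2 (109280738 to 109341749, plus strand). Its FPKM was 11.4, 11.1 and 9.08 in the parental samples and 11.3, 11.2 and 12.2 in M8. Parental replicate 1 lay among the M8 values, parental replicate 2 just below them, and parental replicate 3 stood below the other 5 samples. The log2 fold change was 0.13 with a 95% interval from −0.05 to 0.31 (adjusted p = 0.251 in limma, exact permutation p = 0.3), and without parental replicate 3 it was 0.04 (adjusted p = 0.665). This interval still holds differences as large as those of Kif15 and Kif20b.

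All 4 motors of the midzone and cytokinesis were higher. Kif20a encodes MKLP2, which carries the chromosomal passenger complex with Aurora B to the midzone, and it had the highest level of the 10 genes and the largest fold change. It lies on chromosome 18 (34624624 to 34633277, plus strand). Its FPKM was 56.4, 55.2 and 49.7 in the parental samples and 85.6, 81.3 and 81.9 in M8. Parental replicate 3 was the lowest, and every M8 sample was far above the highest parental one. The mean went from 53.8 ± 3.55 to 83.0 ± 2.34 (SD, n = 3 each), with a log2 fold change of 0.62 (SE 0.053, 95% interval 0.50 to 0.74, adjusted p = 0.000189 in limma). It was the only member past a fold change of 1.5, which 42 of the genes called higher reached.

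Kif23 encodes MKLP1, which forms the centralspindlin complex with the GTPase-activating protein Racgap1, and lies on chromosome 9 (61917277 to 61946810, minus strand). Its values were 26.7, 26.8 and 27.8 FPKM in parental samples and 37.0, 34.3 and 35.7 in M8. The lines were clearly apart, with a log2 fold change of 0.38 (SE 0.045, adjusted p = 0.000693 in limma). Kif20b, or MPP1, acts in the last steps of cytokinesis and lies on chromosome 19 (34922335 to 34975750, plus strand). It had 12.2, 10.9 and 11.04 FPKM in parental samples and 13.1, 13.4 and 14.0 in M8. Its gap between the lines was small, from 12.2 in parental replicate 1 to 13.1 in M8 replicate 1, and the log2 fold change of 0.23 was the lowest among the called members (SE 0.058, adjusted p = 0.0175 in limma). Kif14, which brings citron kinase to the midbody, lies on chromosome 1 (136466301 to 136555938, plus strand) and had the lowest level. Its parental values were 4.49, 4.12 and 3.38 FPKM and its M8 values 5.36, 4.91 and 4.87. It was also the most variable member (CV 14.1% in parental samples and 5.43% in M8), and its log2 fold change was 0.28 (SE 0.092, adjusted p = 0.0478 in limma). Its call was lost without parental replicate 3 (adjusted p = 0.112) and without M8 replicate 1 (adjusted p = 0.151), and also with no filter on low values (adjusted p = 0.115).

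Replicate spread of the 10 genes was like that of other genes, with a median CV of 4.86% in parental cells and 4.19% in M8, where all tested genes had 5.62% and 4.42%. An exact two-sided permutation test of each gene gave p = 0.1 for each of the 9 called members, the smallest value that 3 samples against 3 allow.

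Gene models touch at some of these loci. The longest coding transcript of Kif20a shares 979 bases on the opposite strand with Cdc23, a subunit of the anaphase-promoting complex, and that of Kif4 shares 684 bases with Pdzd11. The libraries were stranded, but whether strand was used in counting is not given in the sources used here, so reads of each such pair may be mixed. Cdc23 had 22.7 ± 0.719 FPKM in parental cells and 26.7 ± 0.638 in M8 (SD, n = 3 each), with a log2 fold change of 0.23 (adjusted p = 0.00638 in limma). Pdzd11 had 66.5 ± 0.731 and 71.2 ± 2.81 FPKM, with a log2 fold change of 0.10 (adjusted p = 0.113). Both differed less between the lines than the kinesin they overlap, and their part in the kinesin values was not tested. The annotated antisense gene Gm31749 also overlaps Kif22. On the same strand, pseudogenes overlap the gene bodies of Kif11 (AC137605.4, 946 bases) and Kif14 (Gm29486 and Gm29485, 372 and 282 bases). Gm47148 overlaps Kif15 (578 bases) and Mir1950 overlaps Kif20b (74 bases). Whether exons are shared there was not resolved. Transcripts of 4932416K20Rik, Appbp2 and Faf2 share 120 to 145 bases with Kif11 at about 95% identity. The part of these genes in the kinesin values was not tested.

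The order of the levels was the same in the parental and M8 lines: Kif20a, Kif22, Kif23, Kif2c, Kif11, Kif4, Kif20b, Kif18a, Kif15 and Kif14. Neighbors in this order whose replicate ranges overlapped were Kif2c with Kif11 and Kif20b with Kif18a in parental cells, and none in M8. FPKM summed over the 10 genes was 214.9, 211 and 203 in the parental samples and 295, 283 and 286 in M8, a mean of 209.7 ± 6.07 against 288 ± 6.34 (SD, n = 3 each; exact permutation p = 0.1). The sum in M8 was 1.37 times that in parental cells.

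Shares of the single motors in this sum are given as a description. Kif20a made up 26.2%, 26.1% and 24.5% of it in parental samples and 29.0%, 28.7% and 28.6% in M8. All M8 shares of Kif20a lay above the parental ones, with means of 25.6 ± 0.978% and 28.8 ± 0.200%. Lower shares without overlap were found for Kif18a (4.47% to 5.29% in parental, 3.81% to 4.25% in M8), Kif20b (5.17% to 5.67% and 4.45% to 4.87%) and Kif15 (3.79% to 4.18% and 3.31% to 3.72%). The exact permutation p of each of these 4 shares was 0.1, the smallest possible with n = 3 per line. After Benjamini-Hochberg adjustment over the 10 shares it was 0.25. No value below 0.1 was possible, so the test could not decide whether a share differed. Of all genes tested, 89.4% did not overlap between the lines when divided by the same sum, which the 10 members themselves make up. Shares of the other 6 genes overlapped between the lines.

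**Figure D3:**
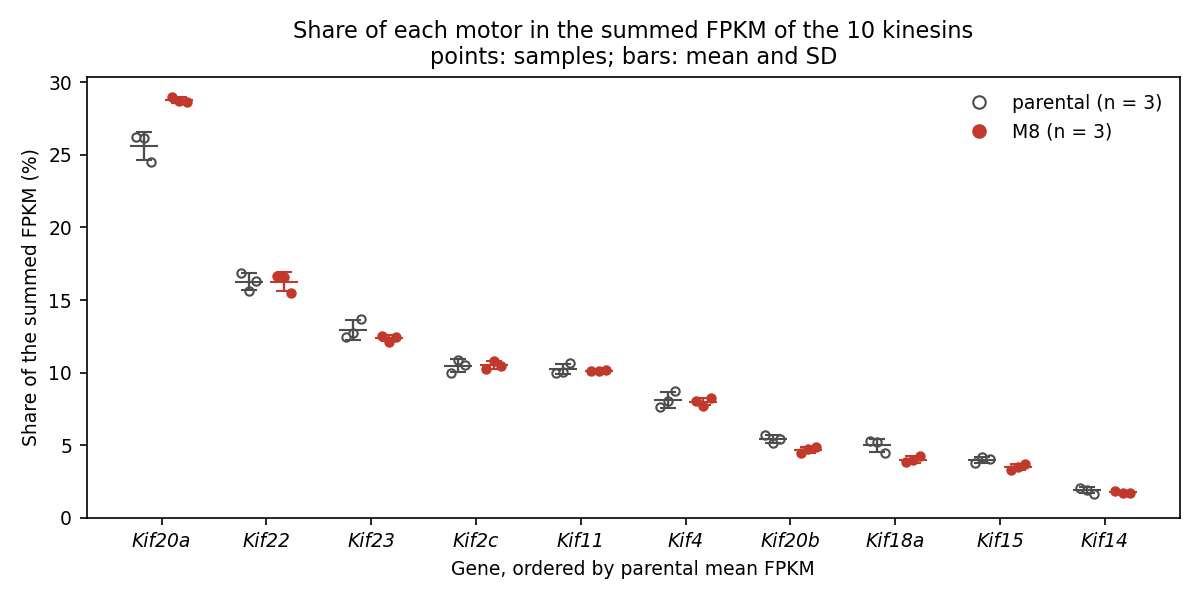
Share in percent of each kinesin in the FPKM summed over the 10 genes, in 3 parental (open circles) and 3 M8 samples (filled circles), with bars for the mean and SD. The filled circles of Kif20a lie above its open circles, those of Kif20b, Kif18a and Kif15 lie below theirs, and the other genes overlap.

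Ratios between named motors were looked at next, a set chosen after the values were seen. Kif20a to Kif20b was 4.62, 5.06 and 4.50 in parental samples and 6.52, 6.08 and 5.87 in M8, so the ratio was higher in all M8 samples. Kif20a to Aurkb, its passenger kinase, was 1.02 ± 0.0711 in parental cells and 1.32 ± 0.0895 in M8 (SD, n = 3 each), also without overlap. Kif11 to Kif15, the primary and the backup pole motor, was 2.56 ± 0.130 and 2.90 ± 0.162, again without overlap. Kif11 to Tpx2, the protein that regulates Eg5 on the spindle, was 0.342 ± 0.0106 and 0.361 ± 0.0073 without overlap, and Kif15 to Tpx2 overlapped (0.134 ± 0.0032 and 0.125 ± 0.0092). Ratios of other motors to their binding partners also overlapped between the lines. Kif23 to Racgap1 was 0.210 ± 0.0088 in parental cells and 0.213 ± 0.0092 in M8, Kif4 to Prc1 was 0.314 ± 0.0126 and 0.317 ± 0.0161, and Kif14 to Cit was 0.776 ± 0.0713 and 0.827 ± 0.0156. Of the 8 ratios in this set, those without overlap had an exact permutation p of 0.1, the smallest possible. After Benjamini-Hochberg adjustment over the 8 it was 0.2. No value below 0.1 was possible, so the test could not decide whether a ratio differed. Of the 45 pairs among the 10 genes, the ratio did not overlap between the lines in 21, which included all 9 pairs of Kif20a, and over all pairs of tested genes above 0 in every sample it did not overlap in 43.3%. The count over the 45 pairs is thus near the background and is no result about these genes. The smallest p of a pair after Benjamini-Hochberg adjustment of the exact permutation p over the 45 pairs was 0.214. Here too no value below 0.1 was possible, so the test could not decide about a pair.

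**Figure D4:**
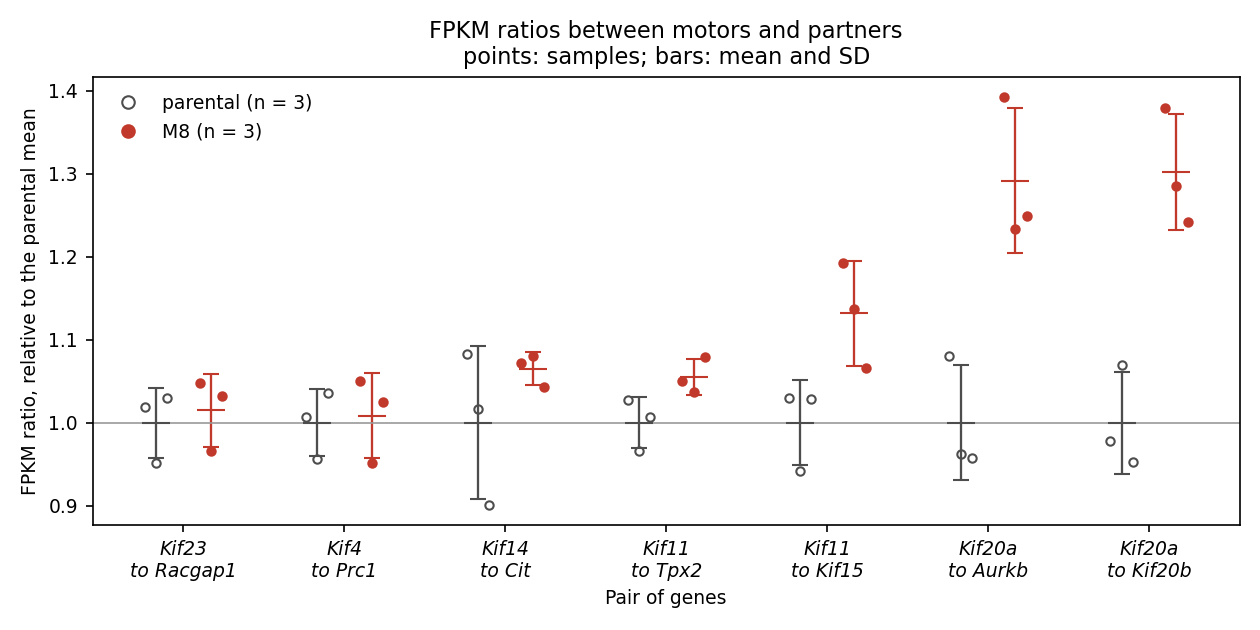
FPKM ratios of 7 gene pairs, each divided by its parental mean, in 3 parental (open circles) and 3 M8 samples (filled circles), with bars for the mean and SD. Ratios of Kif23 to Racgap1, Kif4 to Prc1 and Kif14 to Cit overlap between the lines, and both ratios of Kif20a lie above the parental points in all M8 samples.

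Genes of proteins that bind, load or phosphorylate these motors were mostly higher too. Of 28 partners and regulators, 23 were higher in M8 and 0 lower, with a median log2 fold change of 0.31, against 21.2% higher over all genes tested. The largest changes were those of the mitotic kinases Plk1 (37.7 ± 3.15 to 63.2 ± 3.65 FPKM, log2 fold change 0.73) and Aurka (43.0 ± 0.890 to 68.4 ± 2.15 FPKM, 0.66). Next came Cdca8, or borealin of the passenger complex (log2 fold change 0.49), the spindle protein Tacc3 (0.48) and Ect2, the activator of RhoA in cytokinesis (0.47). The genes that did not pass were Numa1, Clasp1, Clasp2, Mapre1 and Kif1bp, with log2 fold changes between −0.0040 and 0.11. Many of the 28 partners and regulators, called or not, also act in interphase, and whether this goes with their values was not tested. The median log2(FPKM + 1) of the 28 partners was 5.27 in parental cells and 5.64 in M8, a difference of 0.37. Measured against this level in the same sample, Kif20a stood 0.25 further up in M8 than in parental cells and Kif18a stood 0.24 further down, on the log2(FPKM + 1) scale and without overlap. Kif2c was 0.077 up without overlap, and the other 7 members overlapped between the lines. The exact permutation p of these 3 was 0.1 each, and 0.333 after Benjamini-Hochberg adjustment over the 10 members. No value below 0.1 was possible with 3 samples per line, so the test could not decide whether they differed. Of all genes tested, 85% did not overlap between the lines when measured against the partner level.

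Other genes of the kinesin family were set beside the 10 members. Of the 4 other mitotic kinesins, 3 were higher and 0 lower. Cenpe, the kinetochore motor that brings chromosomes to the plate, went from 17.3 ± 0.807 to 23.9 ± 0.9497 FPKM (log2 fold change 0.44, adjusted p = 0.000693). Kifc1, the minus-end motor that focuses spindle poles, went from 25.2 ± 0.867 to 33.0 ± 0.595 FPKM (0.38, adjusted p = 0.000693), and Kif18b, which acts on astral microtubules, from 18.5 ± 0.359 to 22.3 ± 0.350 FPKM (0.26, adjusted p = 0.00304). Kif2a, which also works in interphase and in neurons, had 21.8 to 22.7 FPKM in parental samples and 22.2 to 24.0 FPKM in M8 (0.04, adjusted p = 0.583). Of 28 other kinesins in the tables, mostly transport motors, 14 passed the filter on low values, of which 1 was higher and 4 were lower, with a median log2 fold change of −0.03, beside 21.2% higher and 16.5% lower over all genes tested. Those lower were Kif13b (−0.32, adjusted p = 0.0106), the intraflagellar transport subunit Kif3a (−0.31, adjusted p = 0.00382), Kif3c (−0.25, adjusted p = 0.0524) and Kifc3 (−0.21, adjusted p = 0.0197). The call of Kif3c was lost without parental replicate 3 (adjusted p = 0.131) and without M8 replicate 2 (adjusted p = 0.167), and also with no filter on low values (adjusted p = 0.113) and with quantile normalization (adjusted p = 0.135). Kifc5b was higher (0.32, adjusted p = 0.00192), but it is a near copy of Kifc1, and reads of the 2 genes may have been split between them. Conventional kinesin Kif5b, the most abundant of these transport motors, had 43.8 ± 1.502 and 45.9 ± 1.49 FPKM (0.07, adjusted p = 0.280).

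**Figure D5:**
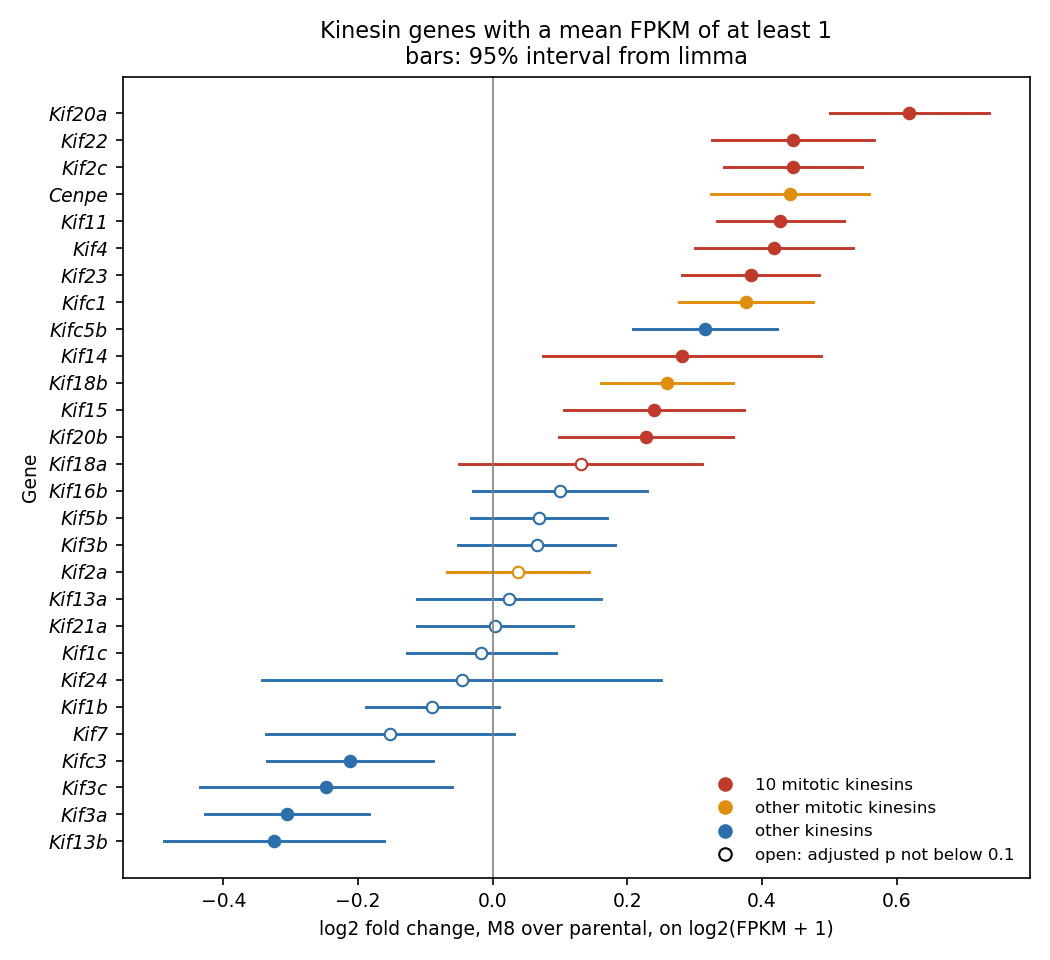
Log2 fold change of M8 over parental on the log2(FPKM + 1) scale with the 95% limma interval for the 28 kinesin genes tested, in the order of the change, with filled points for an adjusted p below 0.1. The 10 members with Cenpe, Kifc1, Kifc5b and Kif18b fill the upper part of the plot, Kif18a has an open point, and Kif3a, Kif3c, Kif13b and Kifc3 lie at the lower end.

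Of 16 factors that act at cell cycle promoters, 5 were higher in M8 and 3 were lower (median log2 fold change −0.0088), beside 21.2% higher and 16.5% lower over all genes tested. These shares are not far from the background, and the factors are described one by one. Foxm1, an activator of G2 and M genes, went from 65.4 ± 0.568 to 93.6 ± 3.89 FPKM (log2 fold change 0.51, adjusted p = 0.000163). The NF-Y subunit Nfyc rose (0.44, adjusted p = 0.00102) and the subunit Nfyb fell (−0.25, adjusted p = 0.00791), and E2f4, the usual E2F of the DREAM complex, rose (0.31, adjusted p = 0.000857). Rbl2, the pocket protein p130 of that complex, fell (−0.24, adjusted p = 0.0198).

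Genes of the G1/S transition served as the other arm of the cell cycle. Of 18, 7 were higher and 1 was lower, with a median log2 fold change of 0.0096, beside 21.2% higher and 16.5% lower over all genes tested. Mcm5, Mcm3 and Mcm2 of the replicative helicase were higher (log2 fold changes 0.28, 0.22 and 0.21), and Ccne2, which encodes cyclin E2, was lower (−0.44, adjusted p = 0.00163). This count varied with the scaling, the threshold and the samples kept, with between 3 and 7 higher and between 1 and 4 lower over the 17 alternatives without a fold change minimum, and 0 in either direction with a minimum of 1.5-fold. The tubulins, the track on which kinesins run, had 4 of 13 tested genes higher and 2 lower (median 0.03), near the shares over all genes tested. Tuba1c had the largest rise (0.29, adjusted p = 0.00289) and the low-level Tubb4a the largest fall (−0.60, adjusted p = 0.00937). Dynein and dynactin, the minus-end motor and its cofactor, had 5 of 17 higher and 1 lower (median 0.04), again not far from those shares. Dync1li1 (0.29, adjusted p = 0.00368) and the mitotic dynein regulator Nde1 (0.25, adjusted p = 0.00329) rose most among them. Over the same 17 alternatives, between 1 and 4 tubulins and between 2 and 5 dynein genes were higher, and up to 4 of each list were lower.

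The genes whose pattern over the 6 samples was most like the mean standardized profile of the 10 kinesins were drawn from 8538 candidates with a mean FPKM of at least 5. They were Cdk8 (Pearson's r 0.999), Mfsd5 (0.999), Cenpf (0.998), Fam198b (0.997), Dnajc7, Tgtp2, Ccnb1, Ddx18, Fam206a and Dhx15 (0.995 to 0.996). Cenpf, a kinetochore protein of G2 and M, had 13.2, 13.1 and 12.2 FPKM in parental samples and 18.1, 17.6 and 17.9 in M8. Ccnb1, which encodes cyclin B1, had 41.3, 42.3 and 36.4 FPKM in parental samples and 65.1, 60.6 and 62.4 in M8. In both genes parental replicate 3 was the lowest sample, as it was for Kif14, Kif18a, Kif20a and Kif2c. For Kif11, Kif23 and Kif4 it was the highest parental sample. Since the samples form a pair of separate groups, such an r mostly reflects the difference between the lines, and it is given as a description. Among kinesins, r was 0.986 for Kifc1, 0.978 for Cenpe and 0.956 for Kif18b, and −0.973 for Kifc3 and −0.969 for Kif3a. Kif18a had an r of 0.697 with the profile it is part of, and the other members had 0.897 to 0.997.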

How the data were processed

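RNA was sequenced from 3 parental and 3 M8 samples. Per the labels and the methods of the study, stranded libraries of mRNA gave single reads of 101 bases, which the authors mapped to mm10, and the values they deposited are FPKM, in 1 table per sample. The submitters' processing notes name TopHat2 2.1.1, Bowtie2 2.2.8, SAMtools 0.1.18 and Cuffdiff 2.2.1. The gene annotation is not given in the sources used here. FPKM values are not counts, so no count model was used.

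All 24346 genes were read, and those that averaged 1 FPKM or more (10597) were fitted with limma 3.58.1 in R 4.3.3 (lmFit, eBayes with trend) on log2(FPKM + 1), without covariates. Tests were two-sided with Benjamini-Hochberg adjustment over all genes tested, at an adjusted p below 0.1. Fold changes on this scale understate changes of low genes. The fit was also tested on simulated data, with independent noise for each gene and fewer changed genes than were called here. No result here rests on that simulation. Exact permutation tests compared single values. Replicates were biological according to a supplementary figure legend of the study, but the labels name no separate cultures. The p-values thus measure only the spread between these samples.

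Relative depth came from the FPKM steps of genes below 0.3 FPKM, scaled to reads with 237 single-transcript genes. The depth and member reads are estimates. Positions and promoters are from RefSeq GRCm38.p6, and transcript overlaps are from GENCODE. Python 3.11.15 with pandas 2.3.3, numpy 2.4.6 and matplotlib 3.10.9 made the tables and plots.

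Named genes were the 10 members, Cenpe, Kifc1, Kif18b and Kif2a, up to 5 called genes with the largest change in each other list, and the 10 genes most like the members' mean profile. Not all of them are named in the text. Others (Kif5b, Cdc23, Pdzd11, uncalled partners and the partners in ratios) were chosen after their values were seen. The members and lists were chosen with earlier results of these data known. Alternative settings changed the pseudocount (0.1, 0.5), the filter (none, or 5 FPKM on average), the scaling (TPM, upper quartile, median, quantile), the trend of eBayes, the threshold (an adjusted p of 0.05, or a 1.5-fold change) and the model (with the replicate number as a term), and left out single replicates. The planned comparison of motor domain sequences was not done here.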

Additional observations from a re-analysis of the deposited data

How the results depend on the processing

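Kif20a kept its call under all 18 alternatives, and Kif11, Kif15, Kif20b, Kif22, Kif23, Kif2c and Kif4 kept theirs under 17 of 18, all but the fold change of at least 1.5. Kif14, not tested at a mean FPKM of at least 5, kept it under 13 of 17, with log2 fold changes from 0.19 to 0.35. Kif18a was not called under any of 18, with log2 fold changes from 0.04 to 0.19 and adjusted p from 0.131 to 0.665. With a fold change of at least 1.5, 1 member was higher, as were 42 of all genes, and 74 of all genes were lower. Leaving out each replicate in turn gave 8 to 9 members higher, 1609 to 2101 of all genes higher and 1157 to 1672 lower. The lowest count of each of the last 2 came without M8 replicate 1. The lines share replicate numbers, and deviations of same-numbered samples correlated at 0.10, −0.11 and −0.03. Not every sample correlated best with its own number. These values showed no pairing by replicate number, but with 3 samples per line they could not exclude it. With the replicate block, 9 members were higher, and 2171 of all genes were higher and 1688 lower. Scaling moved the median of all genes by less than 0.1 on the log2 scale.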
